A study of Mus musculus with 15 samples.

Results

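The angiopoietin-Tie and Notch pathway genes described here are 8 genes chosen by name and matched by symbol: the ligand Angpt2, the receptors Tek and Tie1, the ligand Dll4, the receptors Notch1 and Notch4, the target gene Hey1 and the regulator Dtx1. They are 8 of the 21839 genes in the count table, and the 13887 genes that passed the filter on low counts include all 8. The study sequenced RNA of lymphatic endothelial cells from C57BL/6 mice aged 10 weeks, all transplanted with a mouse melanoma line that the submitters call lymphangiogenic. Cells came from the tumor (Tumor), from the lymph node that drains it (TdLN) and from a non-draining node (NdLN), with 5 libraries per group. After digestion, cells that carried CD31 (the product of Pecam1) and gp38 (the product of Pdpn) but not the leukocyte protein CD45 (the product of Ptprc) were sorted. NdLN cells are therefore also from transplanted mice, and no group from mice without a tumor was analysed here. The labels leave unsaid how many mice stand behind a library, so each p-value measures the spread between these libraries, which may be technical.

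Angiopoietins are secreted ligands of the receptor tyrosine kinase encoded by Tek (Tie2). The product of Angpt1 activates it, that of Angpt2 can activate or block it depending on the setting, Tie1 is a related receptor that pairs with Tie2, and the phosphatase encoded by Ptprb removes phosphate from Tie2. In mice Angpt2 is needed for normal remodelling of lymphatic vessels. In Notch signalling a ligand on a neighbouring cell, such as the product of Dll4, leads to cleavage of a Notch receptor, whose intracellular part joins RBPJ in the nucleus and switches on genes such as Hey1. In endothelium Dll4 and Notch1 restrain sprouting, and Notch4 is a receptor found mainly in endothelial cells.

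The promoters of the receptor pairs are shown because, per all transcripts, Tek and Tie1 fell together in tumor libraries while Notch1 fell and Notch4 rose. RefSeq holds a promoter window, 250 bases before to 50 after the start, for 6 of the 8 genes (build GRCm38.p6; Angpt2 and Hey1 are named only). The windows lie at chr4:94739039-94739338 on the plus strand, chr4:118489800-118490099 on the minus strand, chr2:26503773-26504072 on the minus strand and chr17:34564045-34564344 on the plus strand. Capitals mark matches on either strand to TGGGAA, the core of the RBPJ motif, to TGANTCA (AP-1), to GTAAACA (FOXO) and to AGGAAG (ETS). Each sequence is read along the strand of its gene.
Tek: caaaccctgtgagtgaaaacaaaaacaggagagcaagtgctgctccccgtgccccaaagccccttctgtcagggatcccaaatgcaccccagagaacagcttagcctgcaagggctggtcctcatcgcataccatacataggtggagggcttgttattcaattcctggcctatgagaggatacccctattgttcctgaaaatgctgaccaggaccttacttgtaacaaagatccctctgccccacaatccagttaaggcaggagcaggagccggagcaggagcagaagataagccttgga
Tie1: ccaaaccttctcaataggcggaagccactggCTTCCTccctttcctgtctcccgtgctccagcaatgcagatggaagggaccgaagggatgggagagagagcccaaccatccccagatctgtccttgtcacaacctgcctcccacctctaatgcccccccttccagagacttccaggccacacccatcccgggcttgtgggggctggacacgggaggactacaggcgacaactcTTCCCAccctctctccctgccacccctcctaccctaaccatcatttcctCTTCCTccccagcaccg
Notch1: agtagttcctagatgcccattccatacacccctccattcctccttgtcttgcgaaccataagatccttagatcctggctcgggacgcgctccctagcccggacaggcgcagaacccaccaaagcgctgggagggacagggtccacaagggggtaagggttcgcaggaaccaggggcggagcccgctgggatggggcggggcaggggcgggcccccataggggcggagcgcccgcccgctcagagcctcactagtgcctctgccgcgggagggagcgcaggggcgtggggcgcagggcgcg
Notch4: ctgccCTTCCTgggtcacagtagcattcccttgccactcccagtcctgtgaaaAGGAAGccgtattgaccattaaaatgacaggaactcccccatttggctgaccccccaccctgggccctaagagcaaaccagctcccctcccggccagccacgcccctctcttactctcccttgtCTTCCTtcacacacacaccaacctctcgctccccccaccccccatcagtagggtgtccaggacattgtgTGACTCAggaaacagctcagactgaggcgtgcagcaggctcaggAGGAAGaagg
The Tie1 window held an RBPJ match at bases 235 to 240, on the opposite strand, and ETS matches at bases 32 to 37 and 284 to 289. The Notch4 window held an AP-1 match at bases 247 to 253 and 4 ETS matches. The Tek and Notch1 windows held no match to these letters. Among all 32851 RefSeq windows of 300 bases, 25.6% held the RBPJ letters, 7.81% the AP-1 letters, 3.65% the FOXO letters and 35.4% the ETS letters. A match is a description of letters and says nothing of binding.

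Library totals ranged from 23830337 to 37437282 counts, and the smallest belonged to Tumor 1. Pecam1, the gene of the CD31 used for sorting, averaged 276 ± 86.7 CPM (counts per 1000000, scaled by library total and TMM factor) in Tumor, 1179 ± 87.1 in TdLN and 1596 ± 84.7 in NdLN (SD, n = 5 each), and Prox1, the lymphatic master transcription factor, averaged 105 ± 22.7, 539 ± 74.9 and 766 ± 52.9 CPM in the same groups. A list of 10 lymphatic identity genes, Prox1 among them, took 0.430% ± 0.0557 of all counts in Tumor, 0.634% ± 0.0644 in TdLN and 0.693% ± 0.0672 in NdLN. Of these genes 2 rose and 5 fell in Tumor over TdLN, and 2 rose and 4 fell in Tumor over NdLN. Pdpn averaged 116 ± 46.4 CPM in Tumor, 120 ± 15.4 in TdLN and 124 ± 20.7 in NdLN, while Ptprc stayed at or below 8.80 CPM in every library. A list of 11 pan-endothelial genes made up 0.298% ± 0.0508 of all counts in Tumor, 0.762% ± 0.0527 in TdLN and 0.850% ± 0.0510 in NdLN. All 11 genes fell in Tumor against both node groups. The falls were unequal, with log2 fold changes of -6.07 to -0.74 over TdLN and -6.39 to -0.73 over NdLN. The 8 melanoma and pigment genes in the table made up 3.51% ± 0.579 of counts in Tumor, 0.00191% ± 0.000829 in TdLN and 0.00225% ± 0.000780 in NdLN. Fibroblast markers took 0.536% ± 0.368 of counts in Tumor, 0.0244% ± 0.00965 in TdLN and 0.0360% ± 0.0124 in NdLN. The part of melanoma and stromal RNA in the values below was not tested. Fewer endothelial cells in a sort and less endothelial RNA per cell cannot be told apart in such bulk samples. Each gene below is therefore given both per all transcripts (CPM) and per endothelial transcript, where the summed count of the 11 pan-endothelial genes replaces the library total. Against their own sum, 5 of these genes rose and 6 fell in Tumor over TdLN, and 4 rose and 4 fell in Tumor over NdLN. On the endothelial scale the median log2 fold change of all tested genes was 1.52 for Tumor over TdLN, 1.73 for Tumor over NdLN and 0.20 for TdLN over NdLN, against 0.04, 0.04 and -0.01 on the CPM scale, so the scale alone moved values by 1.49, 1.7 and 0.21.

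**Figure D1:**
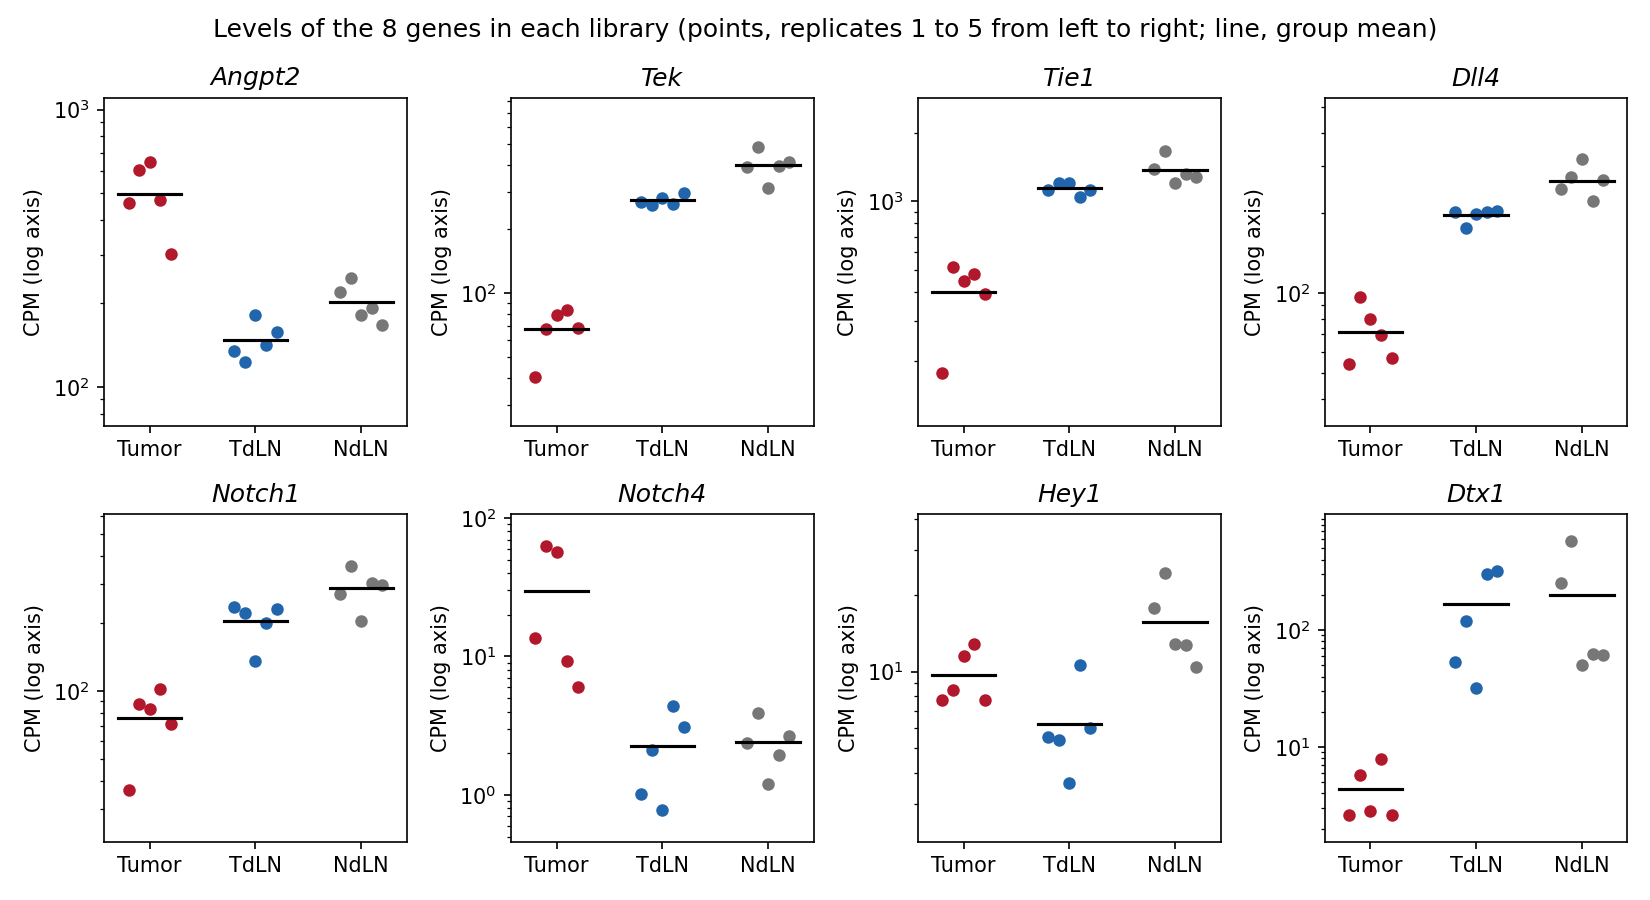
Level of each of the 8 genes in CPM (log axis) in the 5 Tumor, 5 TdLN and 5 NdLN libraries; points are libraries, ordered by replicate number within a group, and lines are group means. Angpt2 and Notch4 are highest in Tumor, Dtx1 is at or below 7.82 CPM in every Tumor library and at or above 32.2 CPM in every node library, and Hey1 overlaps between groups.

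In tumor lymphatic cells against those of the draining node, Angpt2 and Notch4 rose, Tek, Tie1, Dll4, Notch1 and Dtx1 fell, and Hey1 did not pass. That is 7 of 8 genes called at an adjusted p under 0.05 by edgeR's quasi-likelihood test, beside 62.0% of all genes tested (31.9% higher, 30.1% lower). Against the non-draining node 8 of 8 genes were called, Hey1 as lower, beside 66.5% of all genes (34.0% higher, 32.5% lower). Between the nodes 1 of 8 was called, beside 3.49% of all genes: Hey1, lower in TdLN (1.84% of all genes were higher, 1.64% lower). In 7 of 8 genes the Tumor libraries did not overlap with the TdLN libraries, beside 46.6% of all genes, and in 7 of 8 they did not overlap with the NdLN libraries, beside 54.6%. The node groups did not overlap in 2 of 8 genes, Tek and Dll4, beside 7.83%. Per endothelial transcript 5 of 8 genes were called in each tumor comparison, beside 83.0% of all genes over TdLN and 84.5% over NdLN (76.4% higher), and 1 of 8 between the nodes, beside 3.46% (2.99% higher, 0.475% lower). With most genes of the table called in the tumor comparisons, these counts are no result about the 8 genes. Both tumor comparisons use the same Tumor libraries, and each node group also enters a further comparison, so the 3 comparisons are not independent of each other.

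Angpt2, which encodes the context-dependent ligand of Tie2 (chr8:18690263-18741562, minus strand, protein coding, inside an intron of Mcph1 with 0 shared exon bases), had 461, 607, 648, 473 and 301 CPM in Tumor 1 to 5. It had 135, 123, 181, 141 and 158 CPM in TdLN 1 to 5, and 219, 247, 182, 193 and 167 CPM in NdLN 1 to 5. Every Tumor library lay above every node library, Tumor 5 being the lowest of them, while TdLN and NdLN overlapped. Angpt2 rose 3.38-fold in Tumor over TdLN (log2 fold change 1.76 ± 0.19 SE, edgeR adjusted p = 1.06e-06) and 2.47-fold in Tumor over NdLN (1.30 ± 0.18, edgeR adjusted p = 1.55e-05). Per endothelial transcript the log2 fold changes were 3.21 ± 0.16 over TdLN and 2.98 ± 0.16 over NdLN, which are above the all-gene medians of 1.52 and 1.73. TdLN over NdLN gave -0.45 ± 0.18, which did not pass (edgeR adjusted p = 0.207).

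Tek, which encodes the angiopoietin receptor Tie2 (chr4:94739289-94874976, plus strand), moved the other way. It had 40.6, 68.0, 78.6, 83.8 and 69.0 CPM in Tumor 1 to 5, 269, 259, 280, 262 and 294 CPM in TdLN 1 to 5, and 392, 485, 312, 397 and 411 CPM in NdLN 1 to 5. The 3 groups did not overlap: Tumor was lowest and NdLN highest, and Tumor 1 was the lowest library of all. Tek was 4.01-fold lower in Tumor than in TdLN (log2 fold change -2.0 ± 0.17, edgeR adjusted p = 6.52e-08) and 5.87-fold lower than in NdLN (-2.55 ± 0.17, edgeR adjusted p = 4.92e-09). Per endothelial transcript it was still lower, at -0.54 ± 0.15 over TdLN (edgeR adjusted p = 0.00249) and -0.87 ± 0.15 over NdLN (edgeR adjusted p = 3.26e-05), where 8.21% and 8.14% of all genes were called lower. With Pecam1 and Cdh5 alone as the endothelial denominator, the value over TdLN was -0.27 and did not pass (edgeR adjusted p = 0.0918). Between the nodes Tek gave -0.55 ± 0.16 in TdLN over NdLN and missed the threshold (edgeR adjusted p = 0.0750), while DESeq2, limma's voom with quality weights and an edgeR fit of only these groups gave adjusted p-values of 0.0216, 0.0135 and 0.0185.

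Tie1, which encodes the partner receptor of Tie2 (chr4:118471191-118490061, minus strand), had 177, 517, 446, 481 and 392 CPM in Tumor 1 to 5. It had 1124, 1204, 1208, 1043 and 1121 CPM in TdLN 1 to 5, and 1385, 1666, 1197, 1318 and 1271 CPM in NdLN 1 to 5. Tumor 1 was again the lowest library, every Tumor library lay below every node library, and the node groups overlapped. On the CPM scale Tie1 fell by 1.5 ± 0.21 on the log2 scale in Tumor over TdLN (edgeR adjusted p = 2.01e-05) and by 1.76 ± 0.21 in Tumor over NdLN (edgeR adjusted p = 3.4e-06). Per endothelial transcript the values were -0.04 ± 0.19 (edgeR adjusted p = 0.835) and -0.09 ± 0.19 (edgeR adjusted p = 0.666), so neither passed.

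The balance within the Tie system was read as a ratio of counts in each library, which needs no scaling between libraries. Tie1 counts were 4.37, 7.60, 5.67, 5.74 and 5.68 times those of Tek in Tumor 1 to 5, 4.18, 4.65, 4.32, 3.97 and 3.81 times in TdLN 1 to 5, and 3.53, 3.43, 3.84, 3.32 and 3.09 times in NdLN 1 to 5. The log2 ratio was higher by 0.45 in Tumor than in TdLN (exact permutation test over 5 against 5 libraries, two-sided, p = 0.0159, adjusted over 12 ratio tests 0.0272) and by 0.74 in Tumor than in NdLN (exact p = 0.00794, the smallest this design can give, adjusted 0.0190). TdLN also lay above NdLN, by 0.28 (exact p = 0.0159, adjusted 0.0272), with TdLN 5 below NdLN 3. Angpt2 counts were 4.36 to 11.3 times those of Tek in Tumor, 0.475 to 0.648 times in TdLN and 0.406 to 0.584 times in NdLN. The ligand transcript thus outnumbered the receptor transcript in 5 of 5 Tumor libraries and in none of the 10 node libraries. The log2 difference in Angpt2 over Tek was 3.76 for Tumor over TdLN and 3.85 for Tumor over NdLN (exact p = 0.00794 and adjusted 0.0190 in each), and 0.09 for TdLN over NdLN (exact p = 0.50, adjusted 0.750). Corrected for exon length, the Angpt2 level was 5.57 to 14.5 times that of Tek in Tumor, 0.606 to 0.827 times in TdLN and 0.519 to 0.746 times in NdLN.

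**Figure D2:**
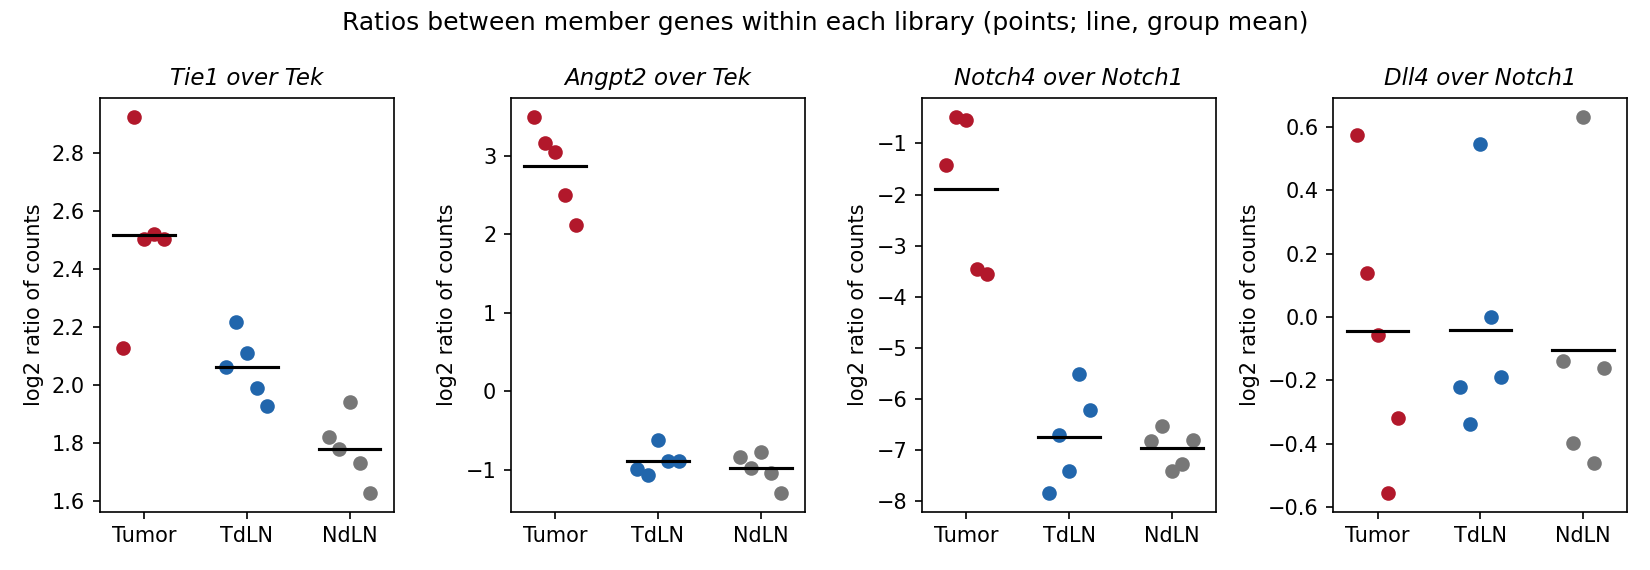
Log2 ratio of counts between pairs of the genes in each Tumor, TdLN and NdLN library (points) with the group mean (line), for Tie1 over Tek, Angpt2 over Tek, Notch4 over Notch1 and Dll4 over Notch1. The Angpt2 over Tek and Notch4 over Notch1 ratios of Tumor lie above all node libraries, while the Dll4 over Notch1 ratios of the 3 groups overlap, between -0.56 and 0.64.

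Dll4, which encodes the main Notch ligand of endothelial tips and arteries (chr2:119325784-119335962, plus strand), had 54.0, 96.3, 79.6, 69.5 and 57 CPM in Tumor 1 to 5. It had 202, 176, 198, 201 and 203 CPM in TdLN 1 to 5, and 246, 273, 318, 221 and 266 CPM in NdLN 1 to 5. The groups did not overlap, Tumor being lowest and NdLN highest, and TdLN 2 stood below the other TdLN libraries. Dll4 fell by 1.46 ± 0.15 on the log2 scale in Tumor over TdLN (edgeR adjusted p = 5.91e-07) and by 1.89 ± 0.15 in Tumor over NdLN (edgeR adjusted p = 3.16e-08) per all transcripts. Per endothelial transcript it gave 0.00 ± 0.16 (edgeR adjusted p = 0.993) and -0.23 ± 0.16 (edgeR adjusted p = 0.189), neither of which passed, and over NdLN it passed without Tumor 2 (-0.37, edgeR adjusted p = 0.0267). Between the nodes it gave -0.43 ± 0.14 (edgeR adjusted p = 0.124), and passed in a fit of only these groups (edgeR adjusted p = 0.0328). The exons of Dll4 share 214 bases with the antisense gene Gm14207, whose reads cannot be told apart from those of Dll4 without strand.

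Notch1, which encodes a broadly expressed Notch receptor (chr2:26457903-26516663, minus strand), had 36.3, 87.4, 82.9, 102 and 71.1 CPM in Tumor 1 to 5. It had 236, 222, 136, 200 and 232 CPM in TdLN 1 to 5, and 270, 360, 205, 304 and 298 CPM in NdLN 1 to 5. Tumor lay below both node groups, with Tumor 1 lowest, and the node groups overlapped, NdLN 3 lying below TdLN 1, 2 and 5. Per all transcripts Notch1 fell by 1.43 ± 0.24 on the log2 scale in Tumor over TdLN (edgeR adjusted p = 9.11e-05) and by 1.92 ± 0.24 in Tumor over NdLN (edgeR adjusted p = 4.92e-06), but per endothelial transcript it gave 0.01 ± 0.21 (edgeR adjusted p = 0.952) and -0.24 ± 0.22 (edgeR adjusted p = 0.296). The ratio of Dll4 to Notch1 counts overlapped between all groups, at 0.680 to 1.49 in Tumor, 0.791 to 1.46 in TdLN and 0.726 to 1.55 in NdLN. Its log2 differences of 0.00 for Tumor over TdLN, 0.06 for Tumor over NdLN and 0.06 for TdLN over NdLN did not pass (exact permutation p = 0.992, 0.817 and 0.730). Exons of 2 antisense genes, 0610009E02Rik and Gm13568, share 1068 and 414 bases with Notch1, and the counts do not separate them.

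The endothelial values of Tie1, Dll4 and Notch1 depend on which endothelial genes stand below the line. With the 10 lymphatic identity genes as denominator, Tie1, Dll4 and Notch1 were lower in Tumor over TdLN by log2 values of -0.85, -0.79 and -0.80 (edgeR adjusted p = 0.000431, 0.000594 and 0.00228) and in Tumor over NdLN by -0.93, -1.06 and -1.08 (edgeR adjusted p = 0.000178, 3.59e-05 and 0.000165). Within that list Ccl21a, a chemokine gene of lymphatic vessels, averaged 1227 ± 367 CPM in Tumor, 135 ± 71.0 in TdLN and 105 ± 33.7 in NdLN, against the direction of most of the list. With Ccl21a left out, a setting chosen after seeing the data, Tie1 gave -0.37 over TdLN and passed (edgeR adjusted p = 0.0370), Dll4 and Notch1 gave -0.30 and -0.31 and did not pass (edgeR adjusted p = 0.103 and 0.137), while over NdLN Tie1, Dll4 and Notch1 passed at -0.43, -0.55 and -0.58 (edgeR adjusted p = 0.0157, 0.00490 and 0.00914). Angpt2 and Notch4 were higher and Dtx1 lower in Tumor over each node group under every one of these denominators.

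**Figure D3:**
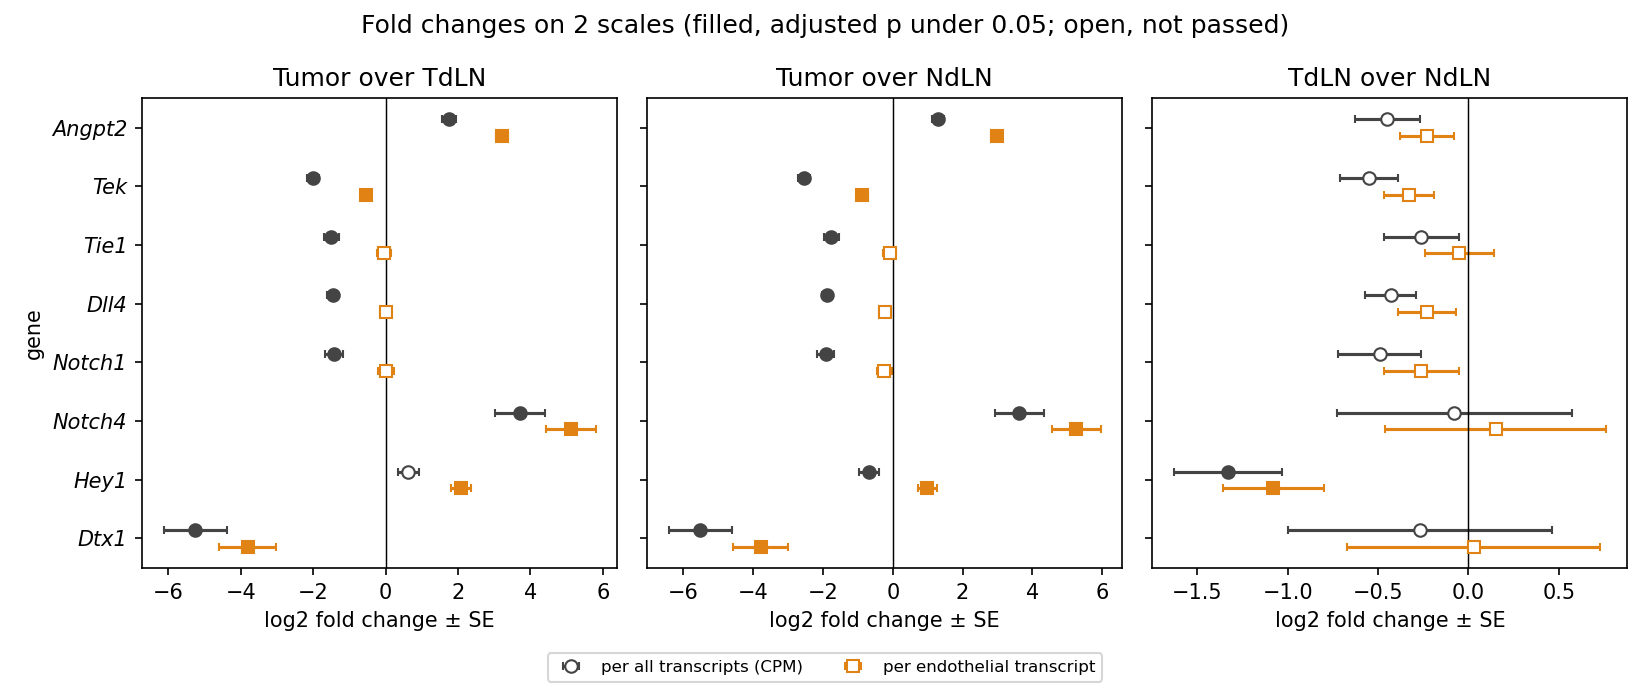
Log2 fold change ± SE of each gene for Tumor over TdLN, Tumor over NdLN and TdLN over NdLN, per all transcripts (grey circles) and per endothelial transcript (orange squares); filled symbols passed an adjusted p under 0.05. Tie1, Dll4 and Notch1 are low in the tumor panels on the CPM scale and near 0 on the endothelial scale, and Hey1 in Tumor over NdLN changes sign between them.

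Notch4, which encodes the mainly endothelial Notch receptor (chr17:34564268-34588503, plus strand), was the Notch receptor that rose in the tumor. It had 13.5, 62.7, 57.1, 9.34 and 6.00 CPM in Tumor 1 to 5, 1.01, 2.1, 0.777, 4.37 and 3.10 CPM in TdLN 1 to 5, and 2.36, 3.88, 1.19, 1.95 and 2.65 CPM in NdLN 1 to 5. Every Tumor library lay above every node library, but Tumor 2 and Tumor 3 stood far above the other Tumor libraries. Notch4 rose 13.1-fold in Tumor over TdLN (log2 fold change 3.71 ± 0.70, edgeR adjusted p = 0.000285) and 12.3-fold in Tumor over NdLN (3.63 ± 0.69, edgeR adjusted p = 0.000286). Per endothelial transcript the values were 5.11 ± 0.69 and 5.26 ± 0.70 (edgeR adjusted p = 4.57e-06 and 3.17e-06). Without Tumor 2 the log2 fold change was 3.22 over TdLN and 3.14 over NdLN, and limma's voom gave 3.01 and 3.04. The counts behind these values ran from 207 to 2390 in Tumor libraries, 27 to 155 in TdLN libraries and 42 to 134 in NdLN libraries.

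The receptor balance shifted with it. Notch4 counts were 0.373, 0.718, 0.689, 0.0914 and 0.0845 of those of Notch1 in Tumor 1 to 5, 0.00434 to 0.0219 of them in TdLN and 0.00587 to 0.0108 of them in NdLN. The log2 ratio was higher by 4.85 in Tumor than in TdLN and by 5.08 in Tumor than in NdLN (exact p = 0.00794, adjusted 0.0190 in each), and TdLN over NdLN gave 0.23 (exact p = 0.659, adjusted 0.876). Per kilobase of exon, Notch4 exceeded Notch1 in Tumor 2 and Tumor 3, at 1.27 and 1.22 times its level, and was 0.149 to 0.658 times its level in the other Tumor libraries.

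Libraries with high Notch4 also had a higher summed share of mural cell marker RNA within the tumor group. The mural list (Rgs5, Pdgfrb and others, 9 genes) took 0.0209%, 0.0354%, 0.0338%, 0.0170% and 0.0174% of counts in Tumor 1 to 5, 0.0197% to 0.0270% in TdLN and 0.00937% to 0.0213% in NdLN. Of its 8 tested genes 4 rose and 2 fell in Tumor over TdLN, and no gene of the list was at 0 in all libraries of a group. Tumor 2 and Tumor 3 were highest in both measures. They were also the highest Tumor libraries in the share of 12 blood endothelium marker genes. It was 0.101% and 0.133% of counts there, against 0.0518% to 0.0838% in the other Tumor libraries. Within the mural list, Kcnj8, Abcc9, Acta2 and Cspg4 were highest in Tumor 2 and Tumor 3 among the Tumor libraries. Pdgfrb was higher in Tumor 5 than in Tumor 3, at 46.7 and 33.8 CPM. Des ran from 8.85 CPM in Tumor 1 to 12.9 CPM in Tumor 5. Rgs5, Myh11 and Higd1b stayed at or below 2.58 CPM in Tumor. TdLN 3 had the highest mural share of the node libraries with the lowest Notch4 level. Apart from the leading genes of the list, those named next were chosen after their values were seen, as the ones that passed. The 4 genes that rose were Kcnj8, which led the list in Tumor (115 ± 44.2 CPM in Tumor and 58.7 ± 21 CPM in TdLN), Pdgfrb (37.6 ± 21.9 and 8.54 ± 3.91 CPM in the same groups), Acta2 (42.4 ± 22.0 and 8.55 ± 5.38 CPM) and Cspg4 (5.85 ± 2.4 and 0.578 ± 0.380 CPM). The 2 that fell were Rgs5, which led the list in the nodes (1.20 ± 0.942 CPM in Tumor and 118 ± 30.9 CPM in TdLN), and Myh11 (0.205 ± 0.415 and 1.77 ± 0.731 CPM). The sort kept cells with CD31, a protein that mural cells typically lack. The mural shares above show that counts of the list were present in every library after this sort. The part of mural cells in the Notch4 values was not tested.

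**Figure D4:**
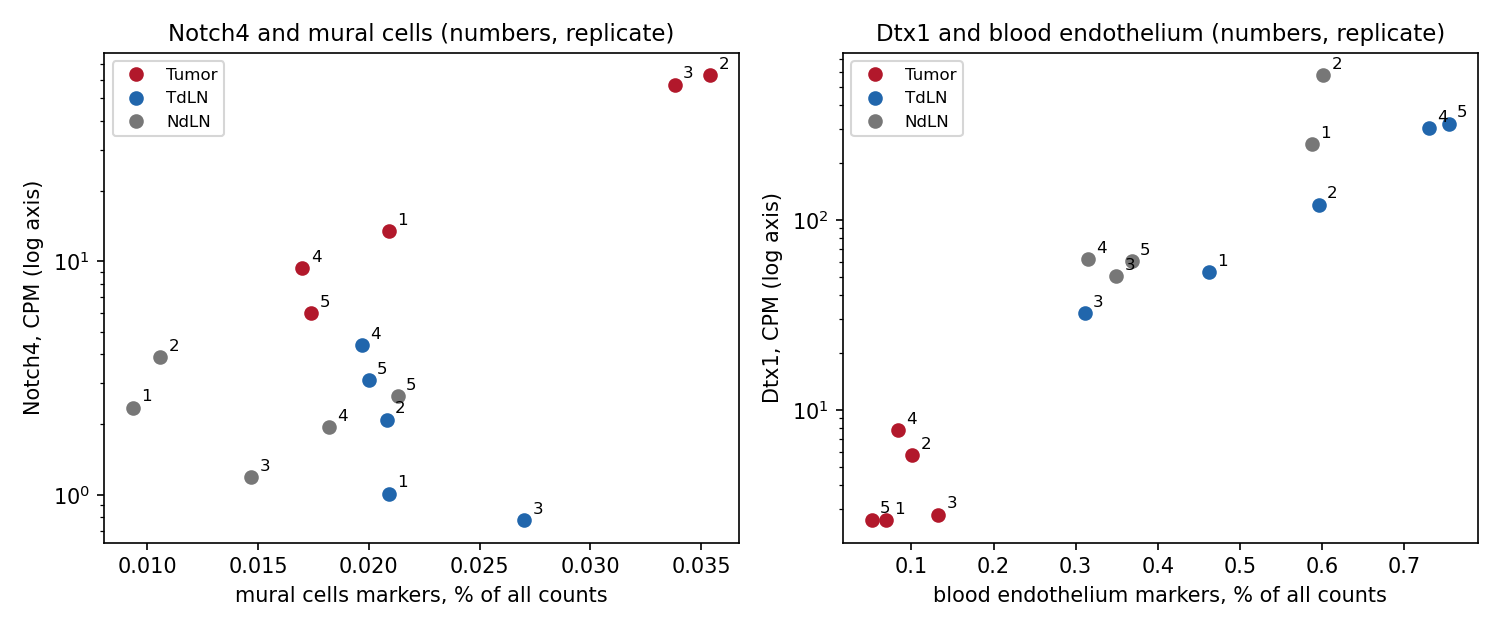
Left, Notch4 in CPM (log axis) against the share of counts in mural cell marker genes; right, Dtx1 in CPM (log axis) against the share of counts in blood endothelium marker genes; each point is a Tumor, TdLN or NdLN library with its replicate number. Tumor 2 and 3 stand apart in the left panel, and in the right panel the node libraries with most Dtx1 are among those with the highest blood endothelium share.

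Hey1, which encodes a transcriptional repressor that Notch switches on (chr3:8663359-8667256, minus strand), had 7.70, 8.50, 11.5, 12.9 and 7.74 CPM in Tumor 1 to 5. It had 5.51, 5.38, 3.63, 10.6 and 5.98 CPM in TdLN 1 to 5, and 17.8, 24.5, 12.9, 12.7 and 10.4 CPM in NdLN 1 to 5. NdLN tended to be highest and TdLN lowest, with overlap between every pair of groups. Hey1 fell by 1.33 ± 0.30 on the log2 scale in TdLN over NdLN (edgeR adjusted p = 0.0230) and was the gene called between the nodes, also per endothelial transcript (-1.08 ± 0.28, edgeR adjusted p = 0.0404). The call per all transcripts was lost without TdLN 1, 2 or 3 or NdLN 1 or 2, with values of -1.29, -1.28, -1.19, -1.28 and -1.11 (edgeR adjusted p = 0.0711, 0.0682, 0.0525, 0.0521 and 0.0677). The endothelial call was lost without any TdLN library but TdLN 4, without any NdLN library but NdLN 5 (-0.91 to -1.15, edgeR adjusted p = 0.0652 to 0.125), and with each other denominator (-0.90 to -1.08, edgeR adjusted p = 0.0630 to 0.111). In Tumor over NdLN its direction depended on the scale: it fell by 0.69 ± 0.29 per all transcripts (edgeR adjusted p = 0.0474) and rose by 0.99 ± 0.27 per endothelial transcript (edgeR adjusted p = 0.00314), with 0.17 against the lymphatic identity genes (edgeR adjusted p = 0.610). The fall was lost without Tumor 1, 2 or 5 or NdLN 1 or 2 (-0.48 to -0.67, edgeR adjusted p = 0.0720 to 0.153), with no filter (edgeR adjusted p = 0.0588) and by limma's voom (-0.41, adjusted p = 0.158). In Tumor over TdLN Hey1 gave 0.63 ± 0.29 per all transcripts, which did not pass (edgeR adjusted p = 0.0722) but passed without TdLN 4 (0.91, edgeR adjusted p = 0.00995) and by DESeq2 (adjusted p = 0.0489), and 2.08 ± 0.28 per endothelial transcript (edgeR adjusted p = 4.02e-06), beside 74.8% of all genes called higher on that scale.

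Dtx1, which encodes Deltex, a ubiquitin ligase that binds the intracellular part of Notch (chr5:120680202-120711927, minus strand), had the widest spread of the 8 genes within each node group. It had 2.62, 5.77, 2.81, 7.82 and 2.64 CPM in Tumor 1 to 5, 53.2, 120, 32.2, 304 and 321 CPM in TdLN 1 to 5, and 251, 576, 50.6, 62.0 and 60.7 CPM in NdLN 1 to 5. No Tumor library reached any node library. Within TdLN the levels differed 9.97-fold between the extremes, and within NdLN 11.4-fold. Dtx1 was 38.1-fold lower in Tumor than in TdLN (log2 fold change -5.25 ± 0.88, edgeR adjusted p = 0.000106) and 46.0-fold lower than in NdLN (-5.52 ± 0.90, edgeR adjusted p = 6.23e-05). Without NdLN 2 the value over NdLN was -4.61, and limma's voom gave -4.44 (adjusted p = 0.0172). Per endothelial transcript the values were -3.81 ± 0.79 and -3.78 ± 0.79 (edgeR adjusted p = 0.000325 and 0.000323), and -2.94 over NdLN without NdLN 2.

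Within TdLN, Dtx1 followed the summed share of a list of blood endothelium markers (12 genes, led by Plvap in each group). That share was 0.0691%, 0.101%, 0.133%, 0.0838% and 0.0518% of counts in Tumor 1 to 5, 0.462%, 0.596%, 0.311%, 0.730% and 0.754% in TdLN 1 to 5, and 0.588%, 0.601%, 0.349%, 0.315% and 0.368% in NdLN 1 to 5. Of the 12 genes 3 rose and 5 fell in Tumor over TdLN, and none was at 0 in all libraries of a group. In TdLN the order of the libraries by Dtx1 was their order by this share, and in NdLN the 2 libraries with most Dtx1 had the 2 highest shares. The order was not kept elsewhere: NdLN 4 had the lowest share of its group and more Dtx1 than NdLN 3 and 5, and Tumor 3 had the highest share of its group while Tumor 4 had most Dtx1. Plvap, the largest part of this sum in TdLN at a mean of 3325 CPM, had 2442, 3816, 314, 5097 and 4958 CPM in TdLN 1 to 5. The genes named next were chosen after their values were seen. Glycam1 and Emcn were highest in TdLN 3, at 2392 and 67.6 CPM, where Dtx1 was lowest. Plvap, Podxl, Flt1, Sox17 and Apln were lowest there among the TdLN libraries, while Vwf, Ackr1, Ly6c1, Aplnr and Esm1 were lowest in other TdLN libraries. Among the NdLN libraries, Plvap, Podxl and Emcn were highest in NdLN 1 and 2. Glycam1, Flt1, Aplnr, Ly6c1, Esm1 and Apln were lowest there. The sort kept cells with gp38, a protein that blood endothelial cells typically lack. The shares above show that counts of the list were present in every library after this sort. The part of blood endothelial cells in the Dtx1 values was not tested.

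Compared per kilobase of exon, the order of the 8 levels differed between tumor and nodes. In Tumor it ran from Angpt2 (135 ± 37.2 CPM per kilobase) and Tie1 (81.9 ± 27.3) through Dll4 (18.5 ± 4.50), Tek (14.4 ± 3.54), Notch1 (5.34 ± 1.75), Notch4 (3.69 ± 3.44) and Hey1 (2.96 ± 0.731) to Dtx1 (0.822 ± 0.448). In TdLN it ran from Tie1 (232 ± 13.9) through Tek (57.9 ± 3.00), Dll4 (50.9 ± 3.00), Angpt2 (40.0 ± 6.11), Dtx1 (31.5 ± 26.1), Notch1 (14.4 ± 2.88) and Hey1 (1.91 ± 0.805) to Notch4 (0.282 ± 0.185). NdLN kept the order of TdLN, from Tie1 (278 ± 36.7) and Tek (84.8 ± 13.1) to Notch4 (0.299 ± 0.123). Angpt2 and Tie1, Dll4 and Tek, Notch1, Notch4 and Hey1, and Notch4 and Dtx1 overlapped between libraries in Tumor. In TdLN Dll4 overlapped with Angpt2, and Dtx1 with Tek, Dll4, Angpt2 and Notch1. In NdLN Tek, Dll4 and Angpt2 overlapped with one another, and Dtx1 with each of them and with Notch1, so the places of these genes in the node orders are not distinct.

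Of the other genes of both pathways, 72 were listed in 7 groups, chosen with earlier results of these data known, and 71 were tested. In Tumor over TdLN 7 rose and 35 fell, which is 59.2% of them beside 62.0% of all genes. In Tumor over NdLN 6 rose and 32 fell, which is 53.5% beside 66.5%. In TdLN over NdLN 0 were called by edgeR's quasi-likelihood test, 11 had an unadjusted p under 0.05, DESeq2 called 4 (Ptprb, Ccng2, Btg1 and Aph1b) and limma's voom 3 (Ptprb, Kat2b and Mib2). Per endothelial transcript 41 rose and 10 fell in Tumor over TdLN, beside 74.8% and 8.21% of all genes, so falls on the CPM scale are named with their endothelial value.

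Among ligands and partners of the Tie receptors (14 genes), 4 rose and 5 fell in Tumor over TdLN, beside 31.9% and 30.1% of all genes, with a median log2 fold change of 0.13 beside 0.04 for all genes. Ptprb, which encodes the phosphatase that acts on Tie2, had 21.7, 37.3, 36.1, 42.6 and 22.7 CPM in Tumor 1 to 5, 280 to 378 CPM in TdLN and 425 to 526 CPM in NdLN. It fell by 3.31 ± 0.19 on the log2 scale over TdLN (edgeR adjusted p = 1.16e-09) and by 3.89 ± 0.19 over NdLN (edgeR adjusted p = 2.33e-10), with -1.87 and -2.24 per endothelial transcript, both of which passed. Tnip2, an inhibitor of NF-kappaB signalling, gave -1.46 ± 0.18 over TdLN (edgeR adjusted p = 5.44e-06) and 0.04 per endothelial transcript (edgeR adjusted p = 0.856). Akt1, a kinase downstream of Tie2, rose by 1.95 ± 0.46 over TdLN (edgeR adjusted p = 0.00184), with Tumor 1 and 2 at 502 and 629 CPM and the other Tumor libraries at 128 to 141 CPM, against 45.2 to 143 CPM in TdLN. Foxo1, the transcription factor that Akt keeps out of the nucleus, averaged 31.0 ± 19.7 CPM in Tumor and 86.8 ± 69.8 CPM in TdLN and fell (-1.49 ± 0.54, edgeR adjusted p = 0.0269), with -0.04 per endothelial transcript. The remaining low genes were picked after their values were seen. Angpt1, the activating ligand, averaged 0.841 ± 0.602 CPM in Tumor, 11.4 ± 4.63 in TdLN and 13.6 ± 1.44 in NdLN and fell in Tumor over TdLN (-3.74 ± 0.46, edgeR adjusted p = 5.03e-06; -2.30 per endothelial transcript). Svep1, an extracellular protein reported to bind Tie1, averaged 15.4 ± 9.36 CPM in Tumor, 1.04 ± 0.944 in TdLN and 2.45 ± 2.49 in NdLN and rose over TdLN (3.89 ± 1.08, edgeR adjusted p = 0.00583). Its Tumor libraries, at 1.90 to 23.3 CPM, overlapped with those of TdLN (up to 2.45 CPM) and NdLN (up to 6.15 CPM).

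Of 10 genes known as targets of FOXO factors, 0 rose and 6 fell in Tumor over TdLN, beside 31.9% and 30.1% of all genes. Their median log2 fold change was -1.75, beside 0.04 for all genes, and -0.28 per endothelial transcript, where the median of all genes was 1.52. On the endothelial scale 3 of the 10 rose and 2 fell over TdLN, beside 74.8% and 8.21% of all genes. Txnip, an inhibitor of thioredoxin, averaged 215 ± 26.7 CPM in Tumor, 1053 ± 288 in TdLN and 1348 ± 298 in NdLN and fell over TdLN (-2.29 ± 0.20, edgeR adjusted p = 1.31e-07; -0.80 per endothelial transcript, adjusted p = 0.00141). Pdk4, a kinase that restrains pyruvate dehydrogenase, averaged 1.88 ± 1.02 CPM in Tumor, 21.4 ± 7.94 in TdLN and 27.8 ± 12.7 in NdLN and fell as well (-3.51 ± 0.48, edgeR adjusted p = 1.4e-05; -2.01 per endothelial transcript). Klf2, a flow-responsive factor, ranged from 31.4 to 879 CPM within TdLN and did not pass (-2.07 ± 0.96, edgeR adjusted p = 0.0733).

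**Figure D5:**
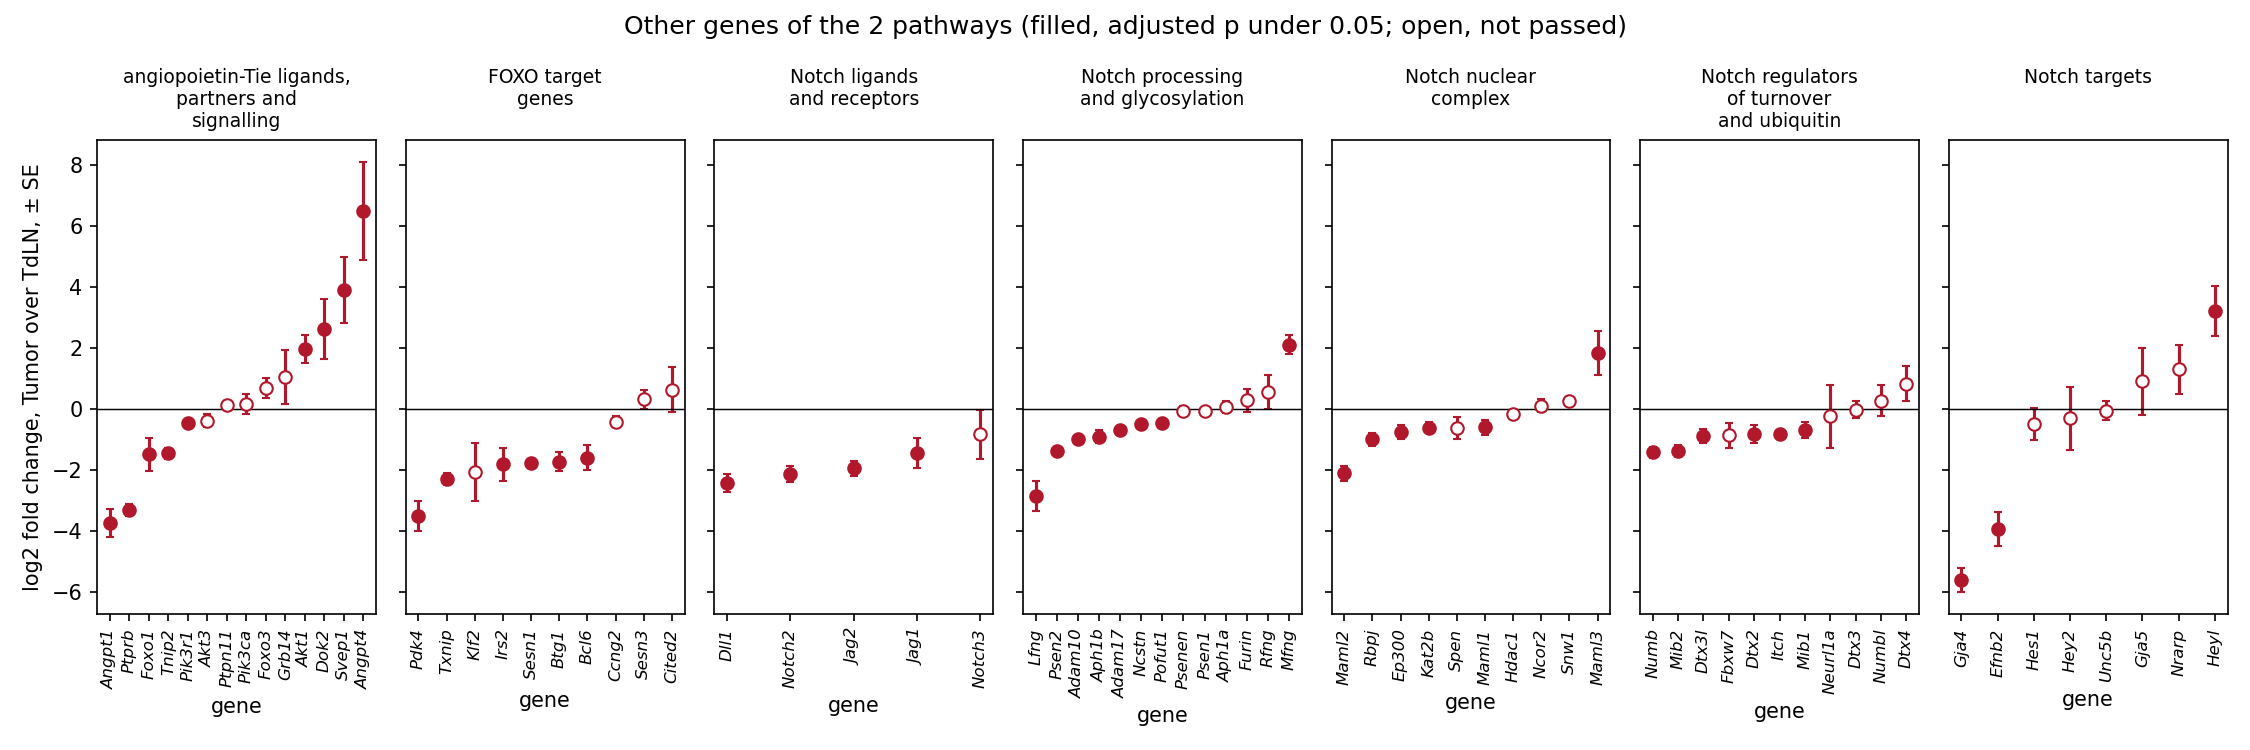
Log2 fold change of Tumor over TdLN ± SE on the CPM scale for the 71 other tested genes of both pathways, sorted within 7 groups; filled points passed an adjusted p under 0.05. The extremes are Gja4 at -5.61 and Angpt4 at 6.48, which rests on 6 counts in all TdLN libraries together, and most filled points lie below 0.

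Of the other Notch ligands and receptors, 0 rose and 4 of 5 tested fell in Tumor over TdLN, beside 30.1% of all genes, and 5 of 5 fell in Tumor over NdLN, beside 32.5%. The median log2 fold changes were -1.95 and -2.60, beside 0.04 for all genes in each comparison. Per endothelial transcript 2 of 5 fell in each, with medians of -0.46 and -0.79. Notch2 averaged 23.1 ± 7.95 CPM in Tumor, 102 ± 30.3 in TdLN and 162 ± 40.7 in NdLN. It gave -2.14 ± 0.26 over TdLN (edgeR adjusted p = 4.29e-06) and, per endothelial transcript, -0.66 (adjusted p = 0.0355). Dll1, a ligand related to Dll4, averaged 13.0 ± 6.86 CPM in Tumor, 70.5 ± 9.10 in TdLN and 89.7 ± 20.5 in NdLN (-2.43 ± 0.30 over TdLN, edgeR adjusted p = 4.71e-06; -1.01 per endothelial transcript). Jag1 and Jag2, the Jagged ligands, gave -1.45 ± 0.49 and -1.95 ± 0.24 over TdLN (edgeR adjusted p = 0.0183 and 5.88e-06), and -0.02 and -0.46 per endothelial transcript, neither of which passed.

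The Fringe glycosyltransferases, which set how a Notch receptor answers each ligand class, differed from one another. Lfng had 0.696, 9.66, 10.2, 6.15 and 6.32 CPM in Tumor 1 to 5, 20 to 64.0 CPM in TdLN and 55.7 to 96.2 CPM in NdLN, and fell over TdLN (-2.85 ± 0.49, edgeR adjusted p = 0.000129; -1.43 per endothelial transcript). Mfng had 25.9, 31.1, 45.6, 19.6 and 18.1 CPM in Tumor 1 to 5, 4.88 to 8.46 CPM in TdLN and 5.77 to 15.7 CPM in NdLN, and rose over TdLN (2.1 ± 0.32, edgeR adjusted p = 4.55e-05) and over NdLN (1.42 ± 0.32, edgeR adjusted p = 0.00101). Neither gene overlapped between Tumor and a node group. Rfng gave 0.55 ± 0.56 over TdLN and did not pass (edgeR adjusted p = 0.413). Of the 13 genes of Notch processing, Mfng was the 1 that rose and 7 fell in Tumor over TdLN, beside 31.9% and 30.1% of all genes, among them the sheddase genes Adam10 (-1.0 ± 0.15, edgeR adjusted p = 2.95e-05) and Adam17 (-0.71 ± 0.14, edgeR adjusted p = 0.000486), whose direction turned on the endothelial scale (0.46 and 0.75, both passing).

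In the nuclear complex 5 of 10 genes fell and 1 rose in Tumor over TdLN, beside 30.1% and 31.9% of all genes. Rbpj, the DNA-binding partner of cleaved Notch, averaged 6.26 ± 1.95 CPM in Tumor, 12.6 ± 2.62 in TdLN and 15 ± 0.933 in NdLN (-1.0 ± 0.22 over TdLN, edgeR adjusted p = 0.00102; 0.46 per endothelial transcript, adjusted p = 0.0795). The coactivator Maml2 gave -2.11 ± 0.24 (edgeR adjusted p = 1.78e-06; -0.61 per endothelial transcript, adjusted p = 0.0333). Of 11 regulators of turnover 6 fell and 0 rose, beside the same shares, with a median log2 fold change of -0.81 beside 0.04 for all genes. Numb, an inhibitor of Notch, gave -1.43 ± 0.18 (edgeR adjusted p = 4.89e-06) and 0.01 per endothelial transcript, and Dtx2, a relative of Dtx1, gave -0.82 ± 0.30 (edgeR adjusted p = 0.0255) and 0.62.

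Of 8 genes known as Notch targets, 1 rose and 2 fell in Tumor over each node group, so 3 of 8 were called, beside 62.0% of all genes over TdLN and 66.5% over NdLN. Gja4, which encodes a gap junction protein of arteries and lymphatic valves, had 5.08, 5.20, 2.73, 9.86 and 14.2 CPM in Tumor 1 to 5, 239 to 481 CPM in TdLN and 234 to 379 CPM in NdLN. It fell by 5.61 ± 0.40 over TdLN and by 5.31 ± 0.40 over NdLN (edgeR adjusted p = 1.51e-08 and 1.95e-08), with -4.06 and -3.56 per endothelial transcript. Efnb2, an ephrin of arteries and lymphatic valves, had 4.34, 15.1, 9.33, 3.85 and 2.90 CPM in Tumor 1 to 5, 45.6 to 265 CPM in TdLN and 61.1 to 100 CPM in NdLN, and fell over TdLN (-3.93 ± 0.56, edgeR adjusted p = 2.28e-05; -2.50 per endothelial transcript). Heyl, named after its value was seen, is a relative of Hey1 and rose over TdLN (3.20 ± 0.83, edgeR adjusted p = 0.00349) at 8.09 ± 5.73 CPM in Tumor, 0.874 ± 0.816 in TdLN and 1.67 ± 0.751 in NdLN. Hes1, the classic Notch target, averaged 105 ± 63.2 CPM in Tumor, 148 ± 88.9 in TdLN and 130 ± 89.0 in NdLN and did not pass (edgeR adjusted p = 0.438 over TdLN). Nrarp, a feedback inhibitor of Notch, averaged 29.7 ± 22.7 CPM in Tumor, 12.2 ± 10.8 in TdLN and 8.88 ± 9.24 in NdLN and did not pass either (edgeR adjusted p = 0.172 over TdLN).

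The genes whose level followed each of the 8 most closely were sought among 9179 genes whose log2 CPM averaged 3 or more, as the smallest root mean square difference of centred log2 CPM over the 15 libraries. Tek was nearest to Pecam1 and Mmrn1, both at 0.15, and Tie1 to Ece1 and Stab1, at 0.15 and 0.16. Dll4 was nearest to Rabgap1l and Vopp1, at 0.18 and 0.20, and Notch1 to Zswim8 and Susd6, at 0.15 and 0.20. Angpt2 was nearest to Arhgap18 and Tuba1a, at 0.24 and 0.28, and Hey1 to Pxdc1 and Ppp1r2, at 0.35 and 0.41. Notch4 and Dtx1 had no gene as near: Traf4 and Zdhhc2 stood at 0.72 and 0.81 from Notch4, and Wnt11 and Tpbgl at 0.58 and 0.83 from Dtx1. The distances are not scaled to the spread of a gene, so genes as variable as Notch4 and Dtx1 tend to stand further from others. They describe 15 libraries that share their groups and carry no test.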

How the data were processed

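The deposited table gives raw, not normalized counts for 21839 Ensembl gene IDs in 15 libraries. Per the labels' protocols, 1 ng of total RNA per library was amplified with a kit that does not mark strand and read as single reads of 50 bases. The submitters' processing notes name featureCounts 1.4.6, STAR 2.4, CASAVA 1.8.2 and the build GRCm38. Which annotation release and strand setting served for counting is not stated in those notes or labels. IDs were matched to GENCODE M21 (21628 matched, and the other 211 held 0.0859% of counts), which also gave coordinates and exon lengths. Library totals of 23830337 to 37437282 set the counting error, and since the amplified reads carry no molecular identifiers it covers reads, not molecules. Sampling noise was far exceeded between any libraries of a group (lowest mean chi-square per gene 27.1), so none was counted as a duplicate.

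The quasi-likelihood test of edgeR 4.0.16 (R 4.3.3) was run in 1 robust fit of all 15 libraries after filterByExpr and TMM scaling, with Benjamini-Hochberg adjustment over 13887 genes and a threshold of 0.05. Errors of fold changes are standard errors (SE), and levels are mean ± SD over 5 libraries. The endothelial scale replaces library totals by the summed counts of Pecam1, Cdh5, Erg, Egfl7, Esam, Eng, Mmrn2, Clec14a, Ecscr, Cldn5 and Arhgef15. Ratios used counts plus 0.5 and two-sided exact permutation tests (scipy 1.17.1) adjusted over 12 tests; with 5 against 5 libraries the smallest p is 0.00794. The edgeR step was tested on simulated counts of 1 pair of groups at a time, in which far fewer genes changed than were called in the tumor comparisons. The joint fit of all 15 libraries was not simulated. The endothelial scale, DESeq2 and voom were not tested on simulated counts. Alternatives were RLE and upper quartile factors, no filter, 10 CPM or more in 5 libraries, voom with quality weights (limma 3.58.1), DESeq2 1.42.0, a replicate block, a fit restricted to 1 pair of groups, other denominators, a pseudocount of 2 and each library left out.

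The 8 genes, the lists and the rules were chosen with earlier results of these data known. Named genes are the 8 genes, genes of the pathway lists whose log2 CPM averaged 3 or more, the sort genes, the genes that lead a marker list and the 2 nearest genes in pattern. Prox1 is named beside them as a lymphatic marker. Other genes outside this are named as such. Replicate numbers come from the labels without a stated pairing, and same-numbered libraries did not deviate together (correlations of -0.21 to 0.248), so they were not used as pairs. Figures were drawn with matplotlib 3.10.9.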

Additional observations from a re-analysis of the deposited data

Results flagged for a closer look

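Dll4 in TdLN 2 stood apart from the other TdLN libraries, at 176 CPM against 198 to 203 CPM. The gap was 0.823 of the range of the group. It was 1 of 36 groups of 5 libraries screened this way, and chance flags about 1 group in 20. Without TdLN 2 the log2 fold change of Dll4 in TdLN over NdLN was -0.40, against -0.43 with it, and neither passed (edgeR adjusted p = 0.262 and 0.124).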

How the results depend on the processing

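Per all transcripts, the alternatives called 6 to 8 of the 8 genes in Tumor over TdLN and 7 to 8 in Tumor over NdLN, against 7 and 8 as reported. In TdLN over NdLN, where 1 of 8 and 0 of 71 other pathway genes were called, DESeq2 called 2 and 4, limma's voom with quality weights 2 and 3, and a fit of only these groups 3 and 4, and leaving out a library gave 0 to 1 and 0 to 1. With the replicate block, a pairing that the labels do not state, the counts of the 8 genes were 7, 7 and 1, the fall of Hey1 in Tumor over NdLN was lost (adjusted p = 0.0592), and the calls over all genes were 8381, 8995 and 400, against 8614, 9230 and 484. Per endothelial transcript, lymphatic identity genes as denominator called 8 in Tumor over TdLN and 7 in Tumor over NdLN, against 5 and 5. Without Ccl21a, a setting added after seeing the data, the counts were 6 and 8, and with Pecam1 and Cdh5 they were 4, Tek being lost, and 5. Between the nodes 0 were called under all 3 other denominators and 0 to 1 with a library left out. The cause of these shifts was not tested.

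The directions that turned under these alternatives belong to values that had not passed as reported. By voom, TdLN over NdLN gave 0.03 for Notch4 and 0.63 for Dtx1. With Pecam1 and Cdh5 as denominator Tie1 gave 0.19 over TdLN, and Tie1, Dll4 and Notch1 gave 0.34, 0.26 and 0.19 in Tumor over NdLN, and Tie1 0.15 in TdLN over NdLN. With the lymphatic denominator Dll4 and Notch1 gave -0.79 and -0.80 in Tumor over TdLN, and -0.30 and -0.31 without Ccl21a. With a library left out, TdLN over NdLN ran from -0.47 to 0.16 for Notch4 and from -0.64 to 0.65 for Dtx1. Per endothelial transcript it ran from -0.25 to 0.37 for Notch4 and from -0.36 to 0.87 for Dtx1. Per endothelial transcript Tumor over TdLN ran from -0.16 to 0.13 for Tie1, -0.14 to 0.05 for Dll4 and -0.11 to 0.17 for Notch1, and Tumor over NdLN from -0.20 to 0.08 for Tie1. The log2 ratio of Dll4 to Notch1 ran from -0.16 to 0.14, -0.09 to 0.24 and -0.08 to 0.25 in Tumor over TdLN, Tumor over NdLN and TdLN over NdLN, and that of Notch4 to Notch1 from -0.08 to 0.50 in TdLN over NdLN. Notch4 has no value under the filter of a CPM of at least 10 in 5 libraries, which it did not pass. Low counts of Notch4 in the nodes and of Hey1 in all groups limit their precision.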
